A study of Homo sapiens with 30 samples.

Results

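The desmosome genes were followed through 6 groups of T47D RNA-seq libraries as a fixed list of 10 symbols. It holds the plakophilins PKP1, PKP2, PKP3 and PKP4, desmoplakin (DSP), plakoglobin (JUP), the cadherins DSC2, DSC3 and DSG2, and PERP. All 10 were found among the 60554 genes counted in each library by matching Ensembl identifiers without their version to symbols, and 9 had enough reads to be tested. DSC3 did not. T47D cells come from a luminal breast tumour and carry abundant progesterone receptor; they were used at passages 18 to 20. The groups, each of 2 libraries, were siCEBPA progestin, siCEBPA untreated, ICRF progestin, ICRF untreated, siControl progestin and siControl untreated. siCEBPA and siControl are cells with an siRNA against CEBPA, which encodes the transcription factor C/EBPα, and with a control siRNA. Progestin is the synthetic receptor agonist R5020 at 10 nM, which the titles call progesterone. All siRNA libraries shared a short arrest of 4 hours, the untreated ones carried the time label T0 and the progestin ones T360, with no unit. Hormone and time label therefore cannot be told apart in them. The ICRF titles name no siRNA, arrest or time and do not explain the name; the stated design includes the effect of inhibiting the topoisomerase Topo2a. The labels do not say that replicates were separate cultures, so each p below sets a difference against a spread that could be technical only.

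Desmosomes are spot-like junctions that tie the keratin filaments of neighbouring epithelial cells together. Outside the cell, desmogleins (DSG) and desmocollins (DSC) bind their partners on the next cell. Inside, plakoglobin and the plakophilins gather the cadherin tails, and desmoplakin carries the load on to keratin. In simple epithelia such as the luminal layer of the breast the usual cadherin pair is DSG2 with DSC2, whereas DSG1, DSG3, DSC1, DSC3 and PKP1 are best known from stratified epithelia such as epidermis.

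Library totals ran from 57364785 to 148624099 read pairs assigned to genes. Within each hormone state the gene targeted by the siRNA followed the labels. CEBPA had 57.5 and 62.2 CPM (read pairs relative to the library total, after TMM scaling) in siCEBPA progestin cells and 207 and 204 CPM in siControl progestin cells. Without hormone it had 10.7 and 12.1 CPM in siCEBPA cells and 47.7 and 54.4 CPM in siControl cells. CEBPA itself was higher with progestin, by 2.39 ± 0.07 log2 in siCEBPA and 1.99 ± 0.06 log2 in siControl cells. Every siCEBPA progestin library thus had more CEBPA than every siControl untreated library. The glucocorticoid and progestin response gene FKBP5 was higher with progestin by 2.35 ± 0.04 log2 in siCEBPA, by 1.27 ± 0.03 log2 in ICRF and by 2.65 ± 0.04 log2 in siControl cells. TSC22D3, another glucocorticoid and progestin response gene, was higher by 3.93 ± 0.06 log2 in siCEBPA, by 2.03 ± 0.05 log2 in ICRF and by 4.02 ± 0.05 log2 in siControl cells. PGR, which encodes the progesterone receptor, was lower with progestin, at -1.15 ± 0.04 log2 in siCEBPA, -1.94 ± 0.03 log2 in ICRF and -1.84 ± 0.04 log2 in siControl cells. Every fold change here is on the log2 scale with its standard error. It was called when the adjusted p of edgeR's quasi-likelihood test, corrected by Benjamini-Hochberg over all genes tested, was under 0.05. All 10 luminal markers had reads in every group, and their summed level was 7164 to 7657 CPM in siCEBPA, 5069 to 10729 CPM in ICRF and 8873 to 9861 CPM in siControl libraries. KRT8 and KRT19 were the largest terms of that sum in every group. With progestin 6 of the 10 were called lower and 1 higher in siCEBPA and siControl cells, and all 10 lower in ICRF cells. The shares of all genes called lower were 28.4%, 29.3% and 30.0% in the same order. In siControl cells the marker FOXA1 averaged 73.1 CPM with progestin and 441 CPM untreated, and KRT19 averaged 4256 and 2305 CPM. Among 8 basal or squamous markers DSG1 had no read in any library, and the summed level of that list was 64.1 to 66.1 CPM in ICRF and 34.1 to 42.9 CPM in siRNA libraries. KRT10 made up nearly all of that sum, with 61.2 to 64.6 CPM in ICRF and 32.1 to 41.0 CPM in siRNA libraries. KRT5 was higher with progestin but reached no more than 2.11 CPM. Fibroblast markers summed to 28.7 to 32.4 CPM in ICRF libraries and to 57.1 to 73.3 CPM in siRNA libraries, of which COL1A1 gave 25.6 to 30.1 CPM and 55.3 to 69.1 CPM. The part of these shifts in the results below was not tested, and in bulk RNA fewer cells of a type and less RNA per cell cannot be told apart.

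Ranges of group means were taken on log2 of CPM plus 0.5, which narrows the range of a gene as low as untreated PKP1. PKP1 and PERP had the widest ranges among the 9 tested members, 5.57 and 2.80 log2, against 0.57 to 1.32 log2 for the other 7. The DNA just before their starts is therefore shown, 5′ to 3′ on the gene's strand, from the RefSeq promoter table (GRCh38.p14), which had entries for 8 of the 10 members and none for PKP2 and PKP3. The PKP1 stretch is chr1:201283256-201283451 on the plus strand, 196 bases, and the PERP stretch is chr6:138107512-138107669 on the minus strand, 158 bases. Both stop where the gene begins in the annotation used for counting. Capitals mark the match to a motif searched for.
PKP1: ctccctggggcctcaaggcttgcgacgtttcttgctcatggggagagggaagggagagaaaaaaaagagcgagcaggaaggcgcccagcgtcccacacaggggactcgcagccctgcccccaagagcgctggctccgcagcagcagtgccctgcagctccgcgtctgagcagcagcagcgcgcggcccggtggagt
PERP: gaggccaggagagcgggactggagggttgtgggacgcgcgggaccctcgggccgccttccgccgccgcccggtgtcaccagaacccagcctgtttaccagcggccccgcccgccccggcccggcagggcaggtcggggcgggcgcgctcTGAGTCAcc
The motifs were AGAACA, an arm of the hormone response element, TTGCNNAA for C/EBP and TGANTCA for AP-1, each read on both strands over 300 bases around the RefSeq start. The PKP1 window held none of them, and the PERP window held 1 AP-1 match, at position -101. Of 35116 RefSeq promoter windows of that length, 14.8% held the hormone element arm, 10.5% the C/EBP motif and 7.71% the AP-1 motif. The only other match among the members was to the C/EBP motif, at position -103 of a second JUP window. A match is a description of letters and not a binding site.

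Per length, the cytoplasmic plaque led the family. In siControl untreated cells JUP stood at 772 ± 31 TPM (counts divided by exonic length and set to the same sum in every library; SD, n = 2) and made up 52.1% ± 1.4 of the summed TPM of the 10 members, and DSP stood at 437 ± 3.4 TPM. DSG2 followed at 81.5 ± 4.9 TPM, PKP3 at 70.2 ± 0.60 TPM, PKP4 at 56.6 ± 1.6 TPM, PERP at 31.8 ± 1.6 TPM and PKP2 at 20.6 ± 1.2 TPM. DSC2 stood at 9.95 ± 0.36 TPM and PKP1 at 0.608 ± 0.063 TPM, and no neighbours in this order overlapped. JUP ranked first and DSP second in 5 of the 6 groups. In siCEBPA progestin cells DSP came first with 342 ± 0.38 TPM and JUP second with 319 ± 15 TPM, and their ranges did not overlap. The summed TPM of the members was 1045 ± 15 in siCEBPA progestin, 1239 ± 32 in siCEBPA untreated, 1169 ± 22 in ICRF progestin, 1438 ± 11 in ICRF untreated, 1139.5 ± 40 in siControl progestin and 1481 ± 19 in siControl untreated cells. In each of the 3 settings the sum was lower with progestin than without, with no overlap between libraries, and JUP carried much of the drop. Without JUP the sum was 726 ± 0.26 TPM in siCEBPA progestin and 722 ± 13 TPM in siCEBPA untreated cells, where the libraries overlapped. It was 672 ± 13 TPM in ICRF progestin and 790.2 ± 4.4 TPM in ICRF untreated cells, and 654 ± 16 TPM in siControl progestin and 708.5 ± 12 TPM in siControl untreated cells, with no overlap in either setting. TPM carries no TMM scaling, so these sums depend on the scale used. In siControl cells DSP, the largest part of the sum without JUP, had 401 ± 6.5 TPM with progestin, below its untreated level. Its TMM-scaled means were 1155 CPM with progestin and 1150 CPM untreated. The order of members and of sums was not tested, and TPM of a gene depends on all other genes.

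**Figure D1:**
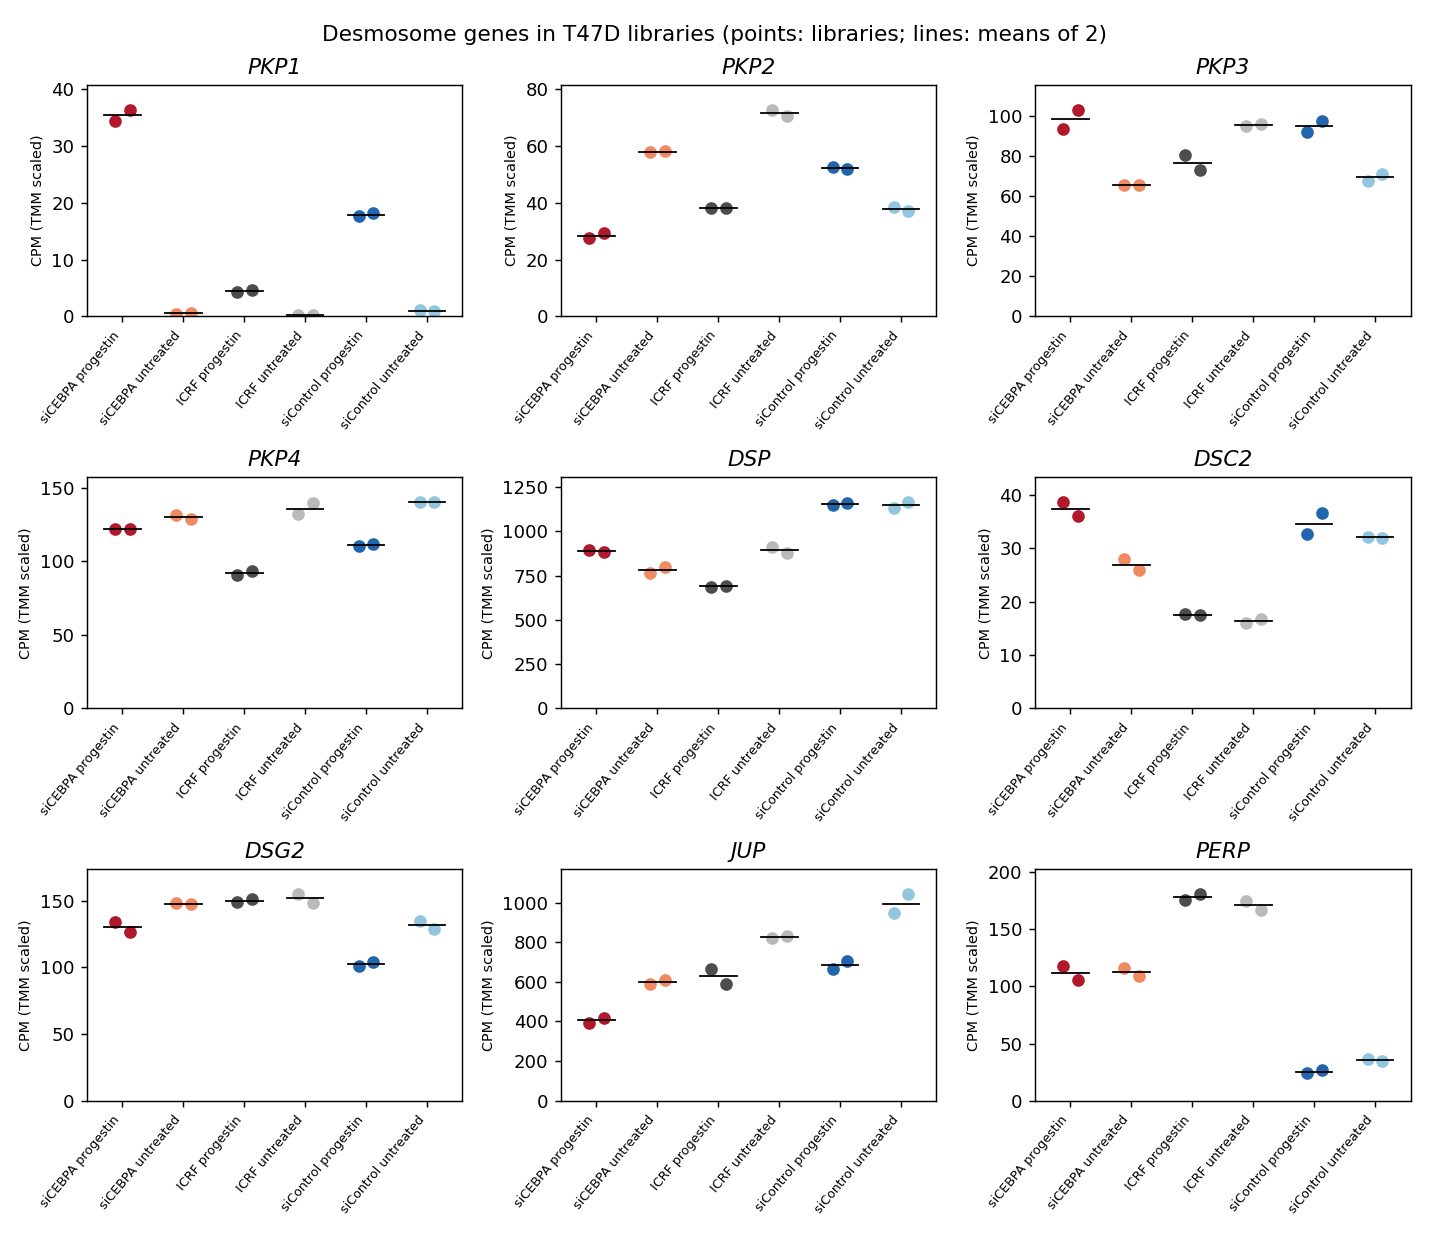
Level of the 9 tested desmosome genes in each of the 12 libraries (y axis: CPM with TMM scaling, from 0, a separate scale for each gene; points are libraries and lines the means of 2). PKP1 is close to the floor in every untreated group and highest at 34.4 and 36.4 CPM in siCEBPA progestin cells, and PERP is lowest in the 4 siControl libraries, at 24.1 to 36.1 CPM.

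PKP1, the plakophilin of stratified epithelia, was nearly silent without hormone and rose with progestin in every setting. It had 34.4 and 36.4 CPM in siCEBPA progestin cells, against 0.453 and 0.570 CPM in siCEBPA untreated cells. ICRF progestin cells had 4.26 and 4.62 CPM, against 0.317 and 0.204 CPM in ICRF untreated cells. With the control siRNA PKP1 had 17.6 and 18.2 CPM with progestin, against 1.03 and 0.930 CPM untreated. No progestin library came near an untreated one, and the lowest untreated libraries still held 22 to 36 read pairs. The rise was 68.9-fold in siCEBPA cells (6.11 ± 0.12 log2, adjusted p = 7.91e-16), 16.9-fold in ICRF cells (4.08 ± 0.20 log2, adjusted p = 3.44e-22) and 18.3-fold in siControl cells (4.19 ± 0.10 log2, adjusted p = 8.34e-15). CEBPA siRNA went with a lower PKP1 before hormone, at -0.91 ± 0.17 log2 against siControl (adjusted p = 0.000374), and with a higher PKP1 after it, by 1.0 ± 0.07 log2 (adjusted p = 3.26e-08). The response itself was accordingly larger in siCEBPA than in siControl cells, by 1.91 ± 0.18 log2 (adjusted p = 1.16e-05). For ICRF minus siControl the difference of responses was -0.12 ± 0.24 log2 (adjusted p = 0.731), with PKP1 at 33 and 22 read pairs in the ICRF untreated libraries. The PKP1 level with progestin was nevertheless lower in the ICRF than in the siControl libraries, a gap that was not tested because the settings differ in more than ICRF.

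PKP2, the plakophilin of simple epithelia and heart muscle, changed direction between settings. It had 27.6 and 29.2 CPM in siCEBPA progestin cells, against 57.9 and 58.1 CPM in siCEBPA untreated cells. ICRF progestin cells had 38.3 CPM in both libraries, against 72.8 and 70.6 CPM in ICRF untreated cells. PKP2 had 52.8 and 51.8 CPM in siControl progestin cells, against 38.6 and 37.1 CPM in siControl untreated cells. The libraries of each pair of groups stood apart, and the hormone effect was -1.04 ± 0.05 log2 in siCEBPA cells (adjusted p = 1.06e-10), -0.92 ± 0.05 log2 in ICRF cells (adjusted p = 3.59e-22) and 0.46 ± 0.05 log2 in siControl cells (adjusted p = 1.87e-06). The responses differed by -1.49 ± 0.08 log2 for siCEBPA minus siControl (adjusted p = 5.22e-08) and by -1.37 ± 0.07 log2 for ICRF minus siControl (adjusted p = 9.4e-13). siCEBPA cells thus had more PKP2 than siControl cells when untreated, by 0.63 ± 0.05 log2 (adjusted p = 1.19e-07), and less with progestin, at -0.87 ± 0.05 log2 (adjusted p = 5.44e-09). In siCEBPA cells the order of PKP1 and PKP2 by TPM was opposite in the 2 states. PKP1 stood at 22.2 ± 1.0 and PKP2 at 15.7 ± 0.77 with progestin, and PKP1 at 0.352 ± 0.061 and PKP2 at 35.2 ± 0.58 untreated.

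PKP3, found in most epithelia, had 93.5 and 103 CPM in siCEBPA progestin cells, against 65.5 and 65.7 CPM in siCEBPA untreated cells. It had 80.3 and 72.8 CPM in ICRF progestin cells, against 94.7 and 96.1 CPM in ICRF untreated cells. It had 92.1 and 97.3 CPM in siControl progestin cells, against 67.5 and 71.2 CPM in siControl untreated cells. PKP3 thus rose with progestin in both siRNA settings, by 0.58 ± 0.05 log2 in siCEBPA (adjusted p = 1.08e-07) and 0.44 ± 0.05 log2 in siControl cells (adjusted p = 2.37e-06), and fell, at -0.33 ± 0.04 log2 in ICRF cells (adjusted p = 6.25e-09). The response in ICRF cells was lower than in siControl cells, at -0.77 ± 0.07 log2 (adjusted p = 2.96e-08). No difference between siCEBPA and siControl was called for PKP3, with -0.07 ± 0.05 log2 untreated (adjusted p = 0.292), 0.07 ± 0.05 log2 with progestin (adjusted p = 0.311) and 0.14 ± 0.07 log2 between the responses (adjusted p = 0.336).

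PKP4, a relative also found at adherens junctions, had 122 CPM in both siCEBPA progestin libraries, against 132 and 129 CPM in siCEBPA untreated cells. It had 90.9 and 93.9 CPM in ICRF progestin cells, against 132 and 139.6 CPM in ICRF untreated cells. It had 110.4 and 112 CPM in siControl progestin cells, against 140.5 and 141 CPM in siControl untreated cells. PKP4 fell with progestin, at -0.57 ± 0.04 log2 in ICRF (adjusted p = 3.77e-17) and -0.35 ± 0.04 log2 in siControl cells (adjusted p = 1.32e-06). The change of -0.10 ± 0.04 log2 in siCEBPA cells just passed the threshold (adjusted p = 0.0403) and missed it under 7 of the alternative settings, among them each omission of a siCEBPA library. Against siControl, PKP4 in siCEBPA cells differed by -0.10 ± 0.04 log2 untreated (adjusted p = 0.0574) and was higher by 0.15 ± 0.04 log2 with progestin (adjusted p = 0.00546). The call with progestin was lost without siControl progestin replicate 1 (adjusted p = 0.0809). The responses differed by 0.25 ± 0.06 log2 for siCEBPA minus siControl (adjusted p = 0.0118) and by -0.22 ± 0.06 log2 for ICRF minus siControl (adjusted p = 0.00257). The first of these calls was lost under 3 alternative settings, and the second with no scaling factors (adjusted p = 0.386). The antisense gene PKP4-AS1 overlaps PKP4 exons on the other strand and held at most 17 read pairs in a library, and counting used the strand.

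The make-up of the plakophilins by TPM moved accordingly. PKP1 held 11.8% ± 0.058 of the summed plakophilin TPM in siCEBPA progestin cells, against 0.209% ± 0.034 in siCEBPA untreated cells (SD, n = 2). ICRF progestin cells had 1.99% ± 0.18, against 0.0846% ± 0.027 in ICRF untreated cells. PKP1 held 6.13% ± 0.0076 in siControl progestin cells, against 0.410% ± 0.036 in siControl untreated cells. PKP3 was the leading plakophilin in all 6 groups, with mean shares between 44.0% and 56.0%. PKP2 held 8.31% ± 0.023 in siCEBPA progestin cells, its lowest share, against 20.9% ± 0.15 in siCEBPA untreated cells. These shares follow from the levels above and are a description.

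**Figure D2:**
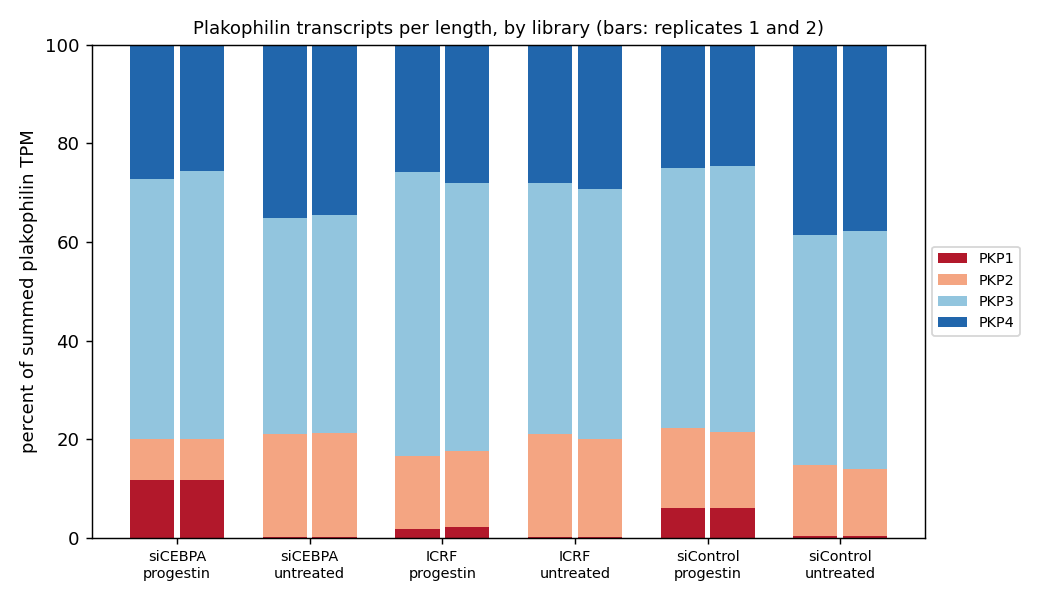
Share of PKP1 to PKP4 in the summed plakophilin TPM (y axis: percent, 0 to 100) in each library, 2 bars a group for replicates 1 and 2. PKP3 is the largest block everywhere, and the PKP1 block at the foot is 11.8% in siCEBPA progestin cells and 6.13% in siControl progestin cells while it is under 0.5% in all untreated libraries.

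DSP, the plaque protein that anchors keratin filaments, was among the members least moved by progestin in siControl cells. It had 893 and 886 CPM in siCEBPA progestin cells, against 764 and 797 CPM in siCEBPA untreated cells. ICRF progestin cells had 688 and 689.8 CPM, against 912 and 877 CPM in ICRF untreated cells. With the control siRNA DSP had 1149 and 1160.0 CPM with progestin and 1133 and 1167 CPM untreated. The siControl groups overlapped, with a difference of -0.01 ± 0.04 log2 (adjusted p = 0.903). DSP rose by 0.18 ± 0.04 log2 with progestin in siCEBPA cells (adjusted p = 0.000655) and fell, at -0.39 ± 0.03 log2 in ICRF cells (adjusted p = 1.69e-14). The siCEBPA rise was not called with upper quartile scaling (adjusted p = 0.257) or with no scaling factors (adjusted p = 0.746). CEBPA siRNA went with less DSP in both states, at -0.55 ± 0.04 log2 untreated (adjusted p = 1.21e-08) and -0.36 ± 0.04 log2 with progestin (adjusted p = 1.23e-06). The response of DSP in ICRF cells was lower than in siControl cells, at -0.38 ± 0.05 log2 (adjusted p = 1.13e-06). That in siCEBPA cells was higher by 0.19 ± 0.05 log2 (adjusted p = 0.0448), a call lost under 9 alternative settings.

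JUP, the catenin shared by desmosomes and adherens junctions, fell with progestin in all 3 settings. It had 394 and 417 CPM in siCEBPA progestin cells, against 589 and 609 CPM in siCEBPA untreated cells. It had 667 and 588 CPM in ICRF progestin cells, against 819.9 and 832 CPM in ICRF untreated cells. It had 665 and 703 CPM in siControl progestin cells, against 947 and 1043 CPM in siControl untreated cells. The fall was -0.57 ± 0.05 log2 in siCEBPA (adjusted p = 5.38e-08), -0.41 ± 0.05 log2 in ICRF (adjusted p = 1.36e-06) and -0.55 ± 0.05 log2 in siControl cells (adjusted p = 7.02e-08). Against siControl, JUP in siCEBPA cells was lower, at -0.72 ± 0.05 log2 untreated (adjusted p = 1.09e-08) and -0.74 ± 0.05 log2 with progestin (adjusted p = 9.94e-09). No difference of responses was called, with -0.02 ± 0.07 log2 for siCEBPA minus siControl (adjusted p = 0.936) and 0.14 ± 0.08 log2 for ICRF minus siControl (adjusted p = 0.169). JUP and DSP were lower with CEBPA siRNA in both hormone states, and siCEBPA progestin cells had the lowest JUP of all 6 groups.

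Of the cadherins, DSG2, the desmoglein of simple epithelia, had 134 and 127 CPM in siCEBPA progestin cells, against 148 CPM in both siCEBPA untreated libraries. It had 149 and 151 CPM in ICRF progestin cells and 155 and 149 CPM in ICRF untreated cells, which overlapped. It had 101 and 104 CPM in siControl progestin cells, against 134 and 128 CPM in siControl untreated cells. DSG2 fell with progestin, at -0.19 ± 0.04 log2 in siCEBPA (adjusted p = 0.00174) and -0.37 ± 0.04 log2 in siControl cells (adjusted p = 2.34e-06), and the -0.03 ± 0.04 log2 of ICRF cells was not called (adjusted p = 0.454). It was higher with CEBPA siRNA than with control siRNA, by 0.18 ± 0.04 log2 untreated (adjusted p = 0.00325) and by 0.36 ± 0.04 log2 with progestin (adjusted p = 6.86e-06). The response in ICRF cells exceeded that in siControl cells by 0.34 ± 0.06 log2 (adjusted p = 3.67e-05). For siCEBPA minus siControl it was 0.18 ± 0.06 log2 and not called (adjusted p = 0.0994).

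DSC2, the desmocollin of simple epithelia, had 38.7 and 36.1 CPM in siCEBPA progestin cells, against 28.0 and 25.9 CPM in siCEBPA untreated cells. It had 17.7 and 17.5 CPM in ICRF progestin cells and 16.0 and 16.8 CPM in ICRF untreated cells. It had 32.7 and 36.6 CPM in siControl progestin cells and 32.2 and 31.9 CPM in siControl untreated cells. All 4 ICRF libraries lay below all 8 siRNA libraries, which was not tested for the reason given above. A rise with progestin was called in siCEBPA cells, at 0.46 ± 0.07 log2 (adjusted p = 2.79e-05), and not in ICRF (0.08 ± 0.07 log2, adjusted p = 0.274) or siControl cells (0.10 ± 0.07 log2, adjusted p = 0.223). DSC2 was lower with CEBPA siRNA in untreated cells, at -0.24 ± 0.07 log2 (adjusted p = 0.00969), a call lost without siCEBPA untreated replicate 2 (adjusted p = 0.0928). With progestin the difference was 0.13 ± 0.07 log2 (adjusted p = 0.156). The response was larger in siCEBPA than in siControl cells by 0.36 ± 0.10 log2 (adjusted p = 0.032), and this call was lost under 5 alternative settings. For ICRF minus siControl it was -0.01 ± 0.09 log2 (adjusted p = 0.926).

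DSC3, the desmocollin of basal keratinocytes, was close to undetected, with 8 read pairs over all 12 libraries. It had 3 read pairs in siCEBPA progestin replicate 1, 1 in siControl progestin replicate 1 and 4 in siControl untreated replicate 2, and 0 in the other 9 libraries. The other cadherins of stratified epithelia were low too: DSG1 and DSG4 had no read pair and DSG3 had 19 in all, at most 6 in a library. DSC1 had 406 read pairs in all and never exceeded 0.902 CPM. DSC1 fell with progestin, at -1.15 ± 0.36 log2 in siCEBPA (adjusted p = 0.0126) and -0.98 ± 0.38 log2 in siControl cells (adjusted p = 0.037), and not in ICRF cells by this test (-0.64 ± 0.38 log2, adjusted p = 0.14). DSC2, DSC3 and DSG2 lie in 1 cluster on chromosome 18 (hg38), with DSC3 at 30990008 to 31042815, DSC2 at 31058840 to 31102415 and DSG2 at 31498043 to 31549008. Neighbours there thus stood at very unlike levels in the same libraries. DSG2-AS1, antisense to DSG2 exons, held at most 3 read pairs in a library.

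PERP, a small membrane protein of desmosomes and a known target of p53 family factors, set the siRNA groups apart most. It had 118 and 106 CPM in siCEBPA progestin cells and 116 and 109 CPM in siCEBPA untreated cells. It had 176 and 181 CPM in ICRF progestin cells and 175 and 167 CPM in ICRF untreated cells. It had 24.1 and 26.4 CPM in siControl progestin cells, against 36.1 and 35.0 CPM in siControl untreated cells. Every siCEBPA library was above every siControl library, 4.48-fold with progestin (2.16 ± 0.06 log2, adjusted p = 4.18e-12) and 3.20-fold untreated (1.68 ± 0.06 log2, adjusted p = 2.36e-11). The ICRF libraries, whose labels name no siRNA, were higher still. Whether the contrast between the siRNAs belongs to the CEBPA siRNA or to the control siRNA cannot be told apart, as no untransfected library of the same experiment is among those used. PERP fell with progestin in siControl cells, at -0.51 ± 0.06 log2 (adjusted p = 5.13e-06), and no change was called in siCEBPA (-0.02 ± 0.06 log2, adjusted p = 0.79) or ICRF cells (0.05 ± 0.04 log2, adjusted p = 0.264). The responses differed from that of siControl by 0.49 ± 0.09 log2 for siCEBPA (adjusted p = 0.00249) and by 0.56 ± 0.08 log2 for ICRF (adjusted p = 3.97e-06). By TPM PERP made up 9.70% ± 0.78 of the members' sum in siCEBPA progestin cells, 13.9% ± 0.80 in ICRF progestin cells and 1.81% ± 0.073 in siControl progestin cells.

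Across the members, progestin moved genes in both directions in every setting. In siCEBPA cells 8 of 9 tested members were called, 4 higher (PKP1, PKP3, DSP, DSC2) and 4 lower (PKP2, PKP4, DSG2, JUP). Of all 18351 genes tested there 58.2% were called, 29.9% higher and 28.4% lower. In ICRF cells 6 were called, PKP1 higher and PKP2, PKP3, PKP4, DSP and JUP lower, where 61.4% of 18556 genes were called, 31.3% higher and 30.0% lower. In siControl cells 7 were called, PKP1, PKP2 and PKP3 higher and PKP4, DSG2, JUP and PERP lower, where 58.5% of 18351 genes were called, 29.2% higher and 29.3% lower. Counts of this size are read against those shares and say little about desmosome genes by themselves. The median log2 change of the members was -0.020 in siCEBPA, -0.334 in ICRF and -0.006 in siControl cells, beside -0.028, -0.011 and -0.035 over all genes tested in the same settings. PKP1 rose and JUP and PKP4 fell in all 3 settings, though the PKP4 call in siCEBPA cells was lost under 7 alternative settings. PKP2 and PKP3 were called with opposite signs in different settings.

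**Figure D3:**
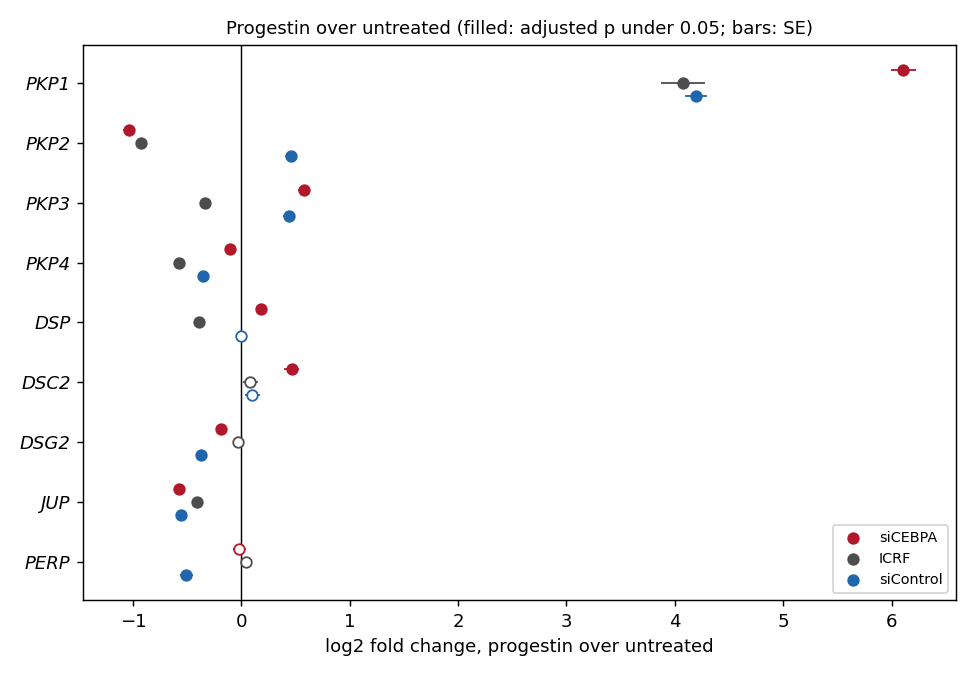
Change of the 9 tested members with progestin (x axis: log2 fold change, progestin over untreated; bars are standard errors, some shorter than the marker) in siCEBPA, ICRF and siControl cells. PKP1 lies alone on the right, from 4.08 to 6.11, and PKP2 lies left of 0 in siCEBPA and ICRF cells and right of it in siControl cells.

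CEBPA siRNA against control siRNA also moved members both ways. With progestin 7 of 9 were called, PKP1, PKP4, DSG2 and PERP higher and PKP2, DSP and JUP lower, where 44.6% of all genes tested were called, 22.5% higher and 22.1% lower. Untreated, 7 were called, PKP2, DSG2 and PERP higher and PKP1, DSP, DSC2 and JUP lower, where 46.6% of all genes were called, 22.6% higher and 24.0% lower. The member medians were 0.125 log2 with progestin and -0.097 log2 untreated, beside 0.020 and 0.006 log2 over all genes. PERP and DSG2 were higher and DSP and JUP lower in both states, while PKP1 and PKP2 were called with opposite signs in the 2 states.

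**Figure D4:**
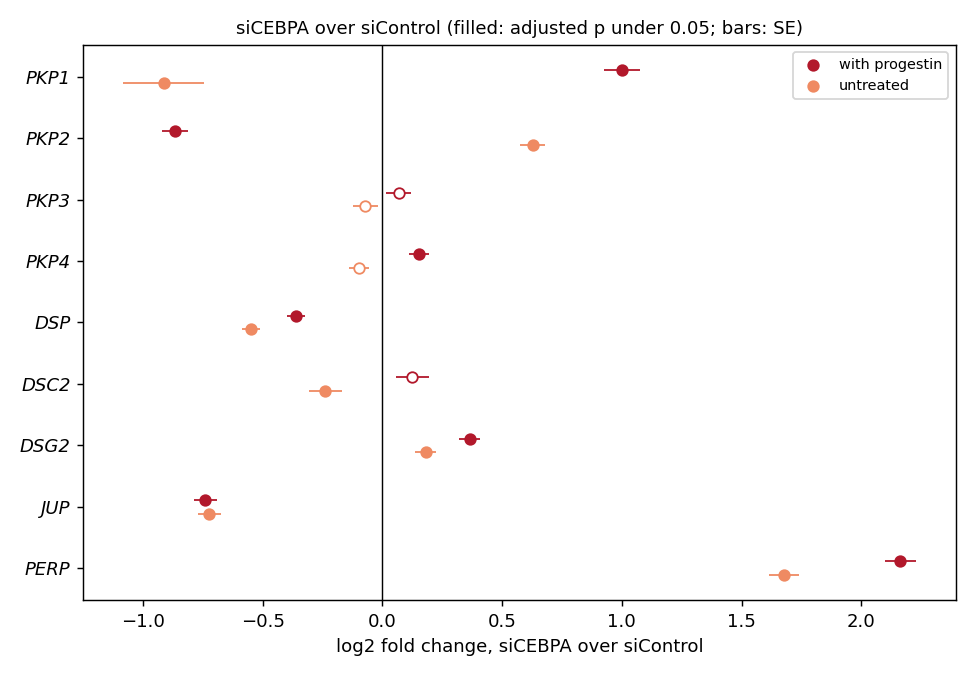
Change of the 9 tested members with CEBPA siRNA (x axis: log2 fold change, siCEBPA over siControl; bars are standard errors) in cells with progestin and in untreated cells. PERP lies farthest right in both states, at 2.16 and 1.68, JUP lies near -0.7 in both, and PKP1 and PKP2 change sides between the states.

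The difference of progestin responses was called for 6 of 9 members between siCEBPA and siControl, PKP1, PKP4, DSP, DSC2 and PERP upward and PKP2 downward, where 7.24% of all genes were called, 4.19% upward and 3.06% downward. That background share was not matched to the level of the members, which are mostly well expressed, and the member median was 0.187 log2 beside 0.021 over all genes. The calls of PKP1, PKP2 and PERP were kept under every alternative setting run. The count was 3, with PKP4, DSP and DSC2 lost, when siControl progestin replicate 1 was left out. Between ICRF and siControl 6 of 9 were called, DSG2 and PERP upward and PKP2, PKP3, PKP4 and DSP downward, where 48.9% of all 19003 genes were called, 24.9% upward and 24.0% downward. The member median was -0.116 log2 beside 0.020 over all genes. Both differences use the same siControl libraries, so they are not independent, and ICRF cannot be told apart from the absence of siRNA, arrest and time labels.

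Genes that work with desmosomes were counted in the same way. Of 6 cytolinkers and accessory proteins 5 rose and none fell in siCEBPA cells, 2 rose and 2 fell in ICRF cells, and 5 rose and none fell in siControl cells. The shares of all genes called there were 58.2%, 61.4% and 58.5% in the same order. The list medians were 0.550, -0.090 and 0.670 log2, beside -0.028, -0.011 and -0.035 log2 over all genes. Periplakin (PPL), a plakin of the cornified layer and of cell junctions, had 274 and 289 CPM in siCEBPA progestin cells, against 50.1 and 52.6 CPM in siCEBPA untreated cells. It had 213 and 216 CPM in ICRF progestin cells, against 77.4 and 82.3 CPM in ICRF untreated cells. It had 352 and 381 CPM in siControl progestin cells, against 46.2 and 48.0 CPM in siControl untreated cells. PPL thus rose by 2.44 ± 0.05 log2 in siCEBPA (adjusted p = 1.6e-15), by 1.41 ± 0.04 log2 in ICRF (adjusted p = 1.15e-31) and by 2.94 ± 0.05 log2 in siControl cells (adjusted p = 3.01e-16). Its response was smaller than in siControl, at -0.50 ± 0.07 log2 in siCEBPA cells (adjusted p = 0.000235) and -1.53 ± 0.06 log2 in ICRF cells (adjusted p = 9.86e-14). Against siControl, 1 gene of this list was higher and 4 were lower in siCEBPA cells with progestin, and 1 was higher and 3 lower untreated. Of all genes 44.6% and 46.6% were called there. The gene higher with progestin was CDSN, near the floor at means of 0.439 CPM in siCEBPA and 0.200 CPM in siControl progestin cells. CDSN was also among the 5 that rose with progestin in siCEBPA and siControl cells. The list medians were -0.251 log2 with progestin and -0.214 log2 untreated. KAZN, the periplakin-binding kazrin, was lower, at -0.73 ± 0.14 log2 with progestin (adjusted p = 0.00043) and -0.59 ± 0.15 log2 untreated (adjusted p = 0.0036).

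Keratins, the filaments that desmoplakin holds, were tested for 6 of 7 genes. With progestin 2 rose and 2 fell in siCEBPA cells, 1 rose and 5 fell in ICRF cells, and 2 rose and 2 fell in siControl cells, where 58.2%, 61.4% and 58.5% of all genes were called. The keratin medians were -0.002, -0.851 and -0.114 log2 in that order. KRT18, a keratin of simple epithelia, fell, at -0.79 ± 0.04 log2 in siCEBPA (adjusted p = 1.82e-10), at -1.69 ± 0.03 log2 in ICRF (adjusted p = 3.2e-37) and -0.65 ± 0.04 log2 in siControl cells (adjusted p = 1.94e-09). KRT19 fell, at -1.44 ± 0.03 log2 in ICRF cells (adjusted p = 2.74e-34) and rose by 0.75 ± 0.05 log2 in siCEBPA (adjusted p = 1.86e-08) and 0.87 ± 0.05 log2 in siControl cells (adjusted p = 3.24e-09). KRT5, the keratin of basal cells, had 131 and 132 read pairs in siCEBPA progestin cells, against 0 and 1 in siCEBPA untreated cells. It had 186 in both ICRF progestin libraries, against 1 and 0 in ICRF untreated cells, and 29 and 31 in siControl progestin cells, against 0 in both siControl untreated libraries. KRT5 thus had reads in every progestin library and at most 1 read pair in any untreated library, and its level stayed at or below 2.11 CPM. Against siControl, 1 keratin was higher and 3 lower in siCEBPA cells with progestin, and none was higher and 4 lower untreated, where 44.6% and 46.6% of all genes were called.

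The adherens junction, which shares JUP and PKP4 with the desmosome, had 12 of 13 listed genes tested. With progestin 6 rose and 1 fell in siCEBPA cells, 2 rose and 9 fell in ICRF cells, and 6 rose and 3 fell in siControl cells. Of all genes 58.2%, 61.4% and 58.5% were called, so the 7 of 12 called in siCEBPA cells stood at that background. The medians of the 12 were 0.190, -0.295 and 0.090 log2. CTNND1 (p120 catenin), a relative of the plakophilins, rose by 1.20 ± 0.04 log2 in siCEBPA (adjusted p = 1.39e-13) and 1.24 ± 0.04 log2 in siControl cells (adjusted p = 7.97e-14) and fell, at -0.21 ± 0.03 log2 in ICRF cells (adjusted p = 2.57e-07). Against siControl, 7 were higher and 2 lower in siCEBPA cells with progestin, and 3 higher and 5 lower untreated, beside 44.6% and 46.6% of all genes called. CDH3 (P-cadherin) was higher by 1.28 ± 0.04 log2 with progestin (adjusted p = 1.21e-11) and by 0.82 ± 0.04 log2 untreated (adjusted p = 6.34e-10).

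Of 7 genes for the making and shedding of desmosomes, 1 rose and 3 fell with progestin in siCEBPA cells, 2 rose and 1 fell in ICRF cells, and 1 rose and 4 fell in siControl cells, beside 58.2%, 61.4% and 58.5% of all genes called. The medians of the 7 were -0.030, 0.038 and -0.118 log2. GRHL2, a grainyhead factor of epithelial junction genes, rose by 1.34 ± 0.04 log2 in siCEBPA (adjusted p = 2.68e-13) and 1.52 ± 0.04 log2 in siControl cells (adjusted p = 5.98e-14), with 0.04 ± 0.03 log2 in ICRF cells (adjusted p = 0.351). GRHL3 fell, at -2.61 ± 0.12 log2 in siCEBPA (adjusted p = 8.73e-11), at -2.48 ± 0.08 log2 in ICRF (adjusted p = 3.31e-28) and -1.74 ± 0.10 log2 in siControl cells (adjusted p = 1.83e-09). TP63, which encodes the basal factor p63, was higher with CEBPA siRNA, at a low level. The difference was 1.89 ± 0.26 log2 in untreated cells (adjusted p = 2.19e-05) and 1.21 ± 0.37 log2 with progestin (adjusted p = 0.0145). With progestin TP63 fell, at -1.65 ± 0.27 log2 in siCEBPA (adjusted p = 7.26e-05) and -0.97 ± 0.36 log2 in siControl cells (adjusted p = 0.0302). Against siControl, 3 of the 7 were higher and 3 lower in siCEBPA cells with progestin, and 2 higher and 2 lower untreated, where 44.6% and 46.6% of all genes were called.

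The genes whose pattern was most like that of PKP1 and PERP were sought among 10901 protein-coding genes whose mean reached 5 CPM in some group, by the root mean square distance of centred log2 CPM over the 12 libraries. Nearest to PKP1 were SCNN1G, which encodes an epithelial sodium channel subunit, at 0.466 log2, SYT2 at 0.488 and MAP7D2 at 0.493. SCNN1G averaged 19.7 ± 0.087 CPM in siCEBPA progestin and 0.593 ± 0.26 CPM in siCEBPA untreated cells (SD, n = 2). In ICRF progestin cells it averaged 5.85 ± 0.15 CPM and in ICRF untreated cells 0.175 ± 0.051 CPM. In siControl progestin cells it averaged 12.1 ± 0.37 CPM and in siControl untreated cells 0.396 ± 0.15 CPM. Nearest to PERP were UPK3B at 0.273 log2, SKA2 at 0.310 and MDGA2 at 0.351. UPK3B averaged 68.1 ± 3.9 CPM in siCEBPA progestin and 82.6 ± 3.3 CPM in siCEBPA untreated cells, and 101 ± 9.1 CPM in ICRF progestin and 125 ± 1.8 CPM in ICRF untreated cells. It averaged 24.3 ± 0.64 CPM in siControl progestin and 29.7 ± 2.3 CPM in siControl untreated cells. Likeness is a description over these libraries and carries no test.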

How the data were processed

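RNA was measured in 12 stranded poly(A) libraries (TruSeq stranded mRNA, per the labels' protocols). The deposited values are raw counts of read pairs per gene, made by the authors with featureCounts 1.5.1 (pairs counted as fragments, reverse strand with -s 2, GENCODE 24 genes, hg38) from STAR alignments, per the file headers. The headers show no setting for multiply aligned reads. Trimmomatic and STAR are named without versions in the submitters' processing notes. The series also has 18 ChIP-seq samples, not analysed here.

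Counts were filtered with filterByExpr, scaled by TMM and tested with edgeR 4.0.16 (estimateDisp, robust glmQLFit, glmQLFTest) in R 4.3.3, Benjamini-Hochberg adjusted over all genes, at 0.05. Separate fits held the 8 siRNA, the 4 ICRF and all 12 libraries, the last for ICRF minus siControl. They left 4, 2 and 6 residual degrees of freedom, so few libraries stand behind the errors, which glmQLFit moderates with those of all genes. How far it does so can differ between fits, so the sizes of p should not be compared across fits. The SE is the size of the log2 change over the square root of F. TPM used the exonic lengths in the files, and likeness and the ranges of group means used log2 of CPM plus 0.5. Replicates correlated at 0.9983 to 0.9990 (Pearson, log2 CPM), and their mean chi-square per gene on raw counts was 4.25 to 12.8, above counting noise. Each was kept as a sample, though such a spread does not show that replicates were separate cultures. The steps were tested on simulated counts. Alternatives were upper quartile, RLE and no scaling, no filter, DESeq2 1.42.0, a replicate block, all 12 libraries in 1 fit, and leaving out each library.

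The members and gene lists were chosen with earlier results of these data known. The text names all members in every comparison, CEBPA, the hormone check genes PGR, FKBP5 and TSC22D3, the stratified cadherins, for each other list some of the 2 genes with the smallest p, and the 3 genes most like PKP1 and PERP. A gene named so in 1 comparison was then followed through the other settings after its values were seen.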

Additional observations from a re-analysis of the deposited data

Results flagged for a closer look

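The response to progestin differed between settings for several members by a test of the difference itself. For siCEBPA minus siControl the differences were 1.91 log2 for PKP1 (adjusted p = 1.16e-05), -1.49 for PKP2 (adjusted p = 5.22e-08), 0.25 for PKP4 (adjusted p = 0.0118), 0.19 for DSP (adjusted p = 0.0448), 0.36 for DSC2 (adjusted p = 0.032) and 0.49 for PERP (adjusted p = 0.00249), all from edgeR. For ICRF minus siControl they were -1.37 log2 for PKP2 (adjusted p = 9.4e-13), -0.77 for PKP3 (adjusted p = 2.96e-08), -0.22 for PKP4 (adjusted p = 0.00257), -0.38 for DSP (adjusted p = 1.13e-06), 0.34 for DSG2 (adjusted p = 3.67e-05) and 0.56 for PERP (adjusted p = 3.97e-06). PKP2, PKP4, DSP and PERP are in both sets. PKP2 and PERP have the same sign in both and PKP4 and DSP opposite signs, and both sets share the siControl libraries. For siCEBPA minus siControl the calls of DSP, DSC2 and PKP4 were lost under 9, 5 and 3 alternative settings. For ICRF minus siControl the PKP4 call was lost with no scaling factors. PKP2 had all its siCEBPA and ICRF progestin libraries below, and all its siControl progestin libraries above, the untreated libraries of the same setting. Luminal markers summed to 5069 to 5343 CPM in ICRF progestin and 10693 to 10729 CPM in ICRF untreated cells, and to 9180 to 9861 CPM in siControl progestin and 8873 to 9357 CPM in siControl untreated cells. By gene, all 10 luminal markers were called lower with progestin in ICRF cells, and 6 lower and 1 higher in siControl cells. Of all genes tested 30.0% and 29.3% were called lower there. The part of these shifts in the ICRF differences was not tested.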

How the results depend on the processing

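Of the 47 member differences called, 39 kept their call and sign under every alternative run, and none of the 47 changed sign. The 8 that lost a call under some alternative were DSC2 and DSP (siCEBPA minus siControl responses, 5 and 9 alternatives, adjusted p up to 0.203 and 0.178), PKP4 (same difference, 3, up to 0.0758), PKP4 and DSP (progestin in siCEBPA cells, 7 and 2, up to 0.285 and 0.746), DSC2 (CEBPA siRNA untreated, 2, up to 0.101), PKP4 (CEBPA siRNA with progestin, 1, 0.0809) and PKP4 (ICRF minus siControl, 1, 0.386, with no scaling). The cause of each was not tested. Of the 16 member differences not called, 8 passed the threshold under some alternative and kept their sign there.

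Sign changes touched only values that were not called. With upper quartile scaling DSC2 was at -0.0099 (progestin, siControl) and 0.029 (ICRF minus siControl), and PERP at -0.022 (progestin, ICRF). With RLE scaling DSP was at 0.014 (progestin, siControl). With no scaling factors DSC2 was at -0.053 (progestin, siControl) and 0.140 (ICRF minus siControl), PKP3 at 0.027 and PKP4 at 0.00020 (CEBPA siRNA, untreated), and PKP1 at 0.035 (ICRF minus siControl). With no filter DSC2 was at 0.017 (ICRF minus siControl). With all 12 libraries in 1 fit DSP was at 0.0063, and with DESeq2 at 0.012 (progestin, siControl), and DESeq2 gave PERP 0.00059 (progestin, siCEBPA). Leaving out each library in turn gave DSP -0.019 to 0.018 (progestin, siControl), JUP -0.090 to 0.056 (siCEBPA minus siControl), PERP -0.099 to 0.063 (progestin, siCEBPA), PKP1 -0.41 to 0.23 and DSC2 -0.091 to 0.074 (both ICRF minus siControl), all in log2.

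The count of members called for siCEBPA minus siControl ran from 3 to 6 over these omissions, 3 without siControl progestin replicate 1. JUP made up 52.1% of the members' summed TPM in siControl untreated cells and 38.4% of their summed CPM, which ignores length. Upper quartile scaling moved the median change of all genes with progestin in siControl cells to -0.145 log2, and no scaling to -0.189, against -0.035. Calls there were 4249 higher and 6860 lower, and 3836 higher and 7495 lower, against 5367 higher and 5374 lower with TMM. As the share of calls that were higher, siCEBPA cells had 36.9% and 33.3%, against 51.3%. With no scaling it was 65.3% for CEBPA siRNA untreated (48.5% with TMM), 64.9% with progestin (50.5%) and 65.2% for ICRF minus siControl (50.9%).

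The labels do not say whether the replicate numbers pair the samples, and the main fits did not treat them as pairs. Correlations of same-numbered deviations were 0.207 to 0.240 among siControl untreated, siCEBPA untreated and siCEBPA progestin cells. Those of siControl progestin with these groups were 0.013 to 0.030, and that of the ICRF groups was 0.031. A replicate block gave 7 members for siCEBPA minus siControl (6 without), with DSG2 added (adjusted p = 0.0294), 8 for CEBPA siRNA untreated (7 without) and the same count for the others. Over all genes it called 1324 genes upward and 947 downward for siCEBPA minus siControl, against 768 and 561 without. Without siControl progestin replicate 1 those numbers were 383 and 309, and without its replicate 2 they were 474 and 305. PKP1 untreated, at 22 to 140 read pairs a library, limits the precision of its responses, and DSC3 could not be tested.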
